A study of Mus musculus with 17 samples.

Results

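The genes described here encode the enzymes, cofactors, membrane proteins and proton pump of the lysosome, with 2 transcription factors that act on lysosomal genes. They are 38 mouse genes taken by name from the 31647 rows of the heart count table, and all 38 had a row of their own and passed the filter on low counts. By role they are 14 hydrolases, 3 soluble cofactors or carriers, 7 membrane proteins, 12 subunits of the vacuolar proton pump (V-ATPase: 5 of the membrane sector V0, 6 of the cytosolic sector V1 and 1 accessory subunit) and the factors Tfeb and Mitf.

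The study asked how the heart and the kidney signal to each other after myocardial infarction (MI). Male wild-type C57BL/6J mice, 8 to 11 weeks old, had the left anterior descending coronary artery (LAD) tied permanently, and RNA from the cardiac infarct zone (IZ) was sequenced 5d later in 9 of them. Left ventricular (LV) tissue of 8 sham-operated mice, which had the surgery without the ligation, served as control. The model is not reperfused, no mouse carried an engineered allele, and kidneys were not analysed here. Each library is 1 mouse, and RNA was counted by massive analysis of cDNA ends, a 3′-end method in which 1 molecule gives 1 tag and random barcodes remove PCR copies. Totals ran from 1237675 to 4738307 counts per library. Levels are given as CPM, the counts of a gene relative to the size of its library, after scaling by TMM, a method that sets libraries on one scale through the bulk of their genes.

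The lysosome breaks down proteins, lipids, glycans and whole organelles delivered by endocytosis, phagocytosis and autophagy. Its hydrolases work in acid, which the V-ATPase makes by pumping protons across the lysosomal membrane at the cost of ATP. Many genes of both groups carry in their promoters an E-box, CACGTG, bound by the factors TFEB, TFE3, TFEC and MITF, and an extended form with set bases on either side is known as the CLEAR element. Phagocytes such as macrophages hold many lysosomes, and cardiac muscle relies on lysosomal acid alpha-glucosidase to clear glycogen.

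To show what the shared element looks like in these genes, promoter windows from the RefSeq table (GRCm38.p6, 250 bases before to 50 after each start) were searched for CACGTG, TCACGTGA and the CLEAR element (TCACGTGA with G before and C after it), each of which reads the same on both strands. The 33 members with an entry had 40 windows. CACGTG was in 9 of the 40 windows (22.5%), against 7.15% of all 32851 windows of this length. The 8-base form TCACGTGA, which contains CACGTG, was in 5 of the 40 (12.5%), against 0.974% of all windows, and the CLEAR element, which contains both, was in 0 of the 40, against 0.326%. Member windows had a median GC content of 56.2% and all windows 52.7%. The stretches below are those of 6 of the 9 genes, 5′ to 3′ on the gene's strand, with CACGTG in capitals. Lamp1 is shown for its 4 copies close to the start, Glb1 and Gaa as hydrolases whose levels went opposite ways, and Atp6v0b, Atp6v0d1 and Atp6v1a as pump subunits.
Lamp1 (chr8:13159081-13159160, + strand): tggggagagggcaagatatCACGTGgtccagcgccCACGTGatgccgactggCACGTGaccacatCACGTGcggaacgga
Glb1 (chr9:114400998-114401077, + strand): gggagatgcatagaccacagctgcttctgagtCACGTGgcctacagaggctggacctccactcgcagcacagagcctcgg
Gaa (chr11:119267801-119267850, + strand): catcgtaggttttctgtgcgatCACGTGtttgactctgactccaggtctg
Atp6v0b (chr4:117887330-117887409, - strand): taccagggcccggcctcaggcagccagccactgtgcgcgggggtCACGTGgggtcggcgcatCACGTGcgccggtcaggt
Atp6v0d1 (chr8:105566062-105566144, - strand): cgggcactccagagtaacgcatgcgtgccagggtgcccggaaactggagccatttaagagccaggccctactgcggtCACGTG
Atp6v1a (chr16:44139363-44139412, - strand): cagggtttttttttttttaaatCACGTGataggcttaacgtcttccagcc

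The other members with the element were Gla, with 2 copies that both read TCACGTGA, Mcoln1 with 2 copies and Atp6v0e with 1. The copies of Lamp1 began 61, 45, 28 and 15 bases before the RefSeq start, and that of Atp6v0d1 began 3 bases before it. Those of Gla began 227 and 194 bases before the start. A match describes the letters of a window and shows no binding.

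In the infarct zone 5d post-MI most of the 38 genes were higher than in sham LV tissue. By edgeR's quasi-likelihood test over all genes with Benjamini-Hochberg adjustment (adjusted p under 0.05), 30 members rose, 6 fell and 2 did not pass. Among all 12301 genes tested, 69.5% passed, 36.3% upward and 33.1% downward. A change in itself is thus common in this comparison, and it is the 36.3% upward that stands beside the 30 of 38 members that rose. The 6 that fell were Gaa, Atp6v0a1, Atp6v1d, Atp6v1e1, Tfeb and Mitf, and when libraries were scaled by total counts alone, which moves the median of all genes up by 1.08 on the log2 scale, the first 5 of these had positive values, of which that of Tfeb did not pass, while Mitf stayed down. Measured from the median of all genes, 32 of the 38 members lay above it under TMM and 32 under total counts alone. The median log2 fold change of the members was 0.84, against 0.05 over all tested genes. In 21 members every IZ library lay above every sham library, which holds for 16.6% of all genes, and in 1 member (Mitf) every IZ library lay below, which holds for 16.5%.

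The tissue itself had changed between the groups. All 10 cardiomyocyte markers were lower in the IZ, their summed level ranging from 61920 to 75750 CPM in sham and from 2061 to 23890 in IZ libraries. All 11 macrophage markers with a row of their own were higher, with sums of 446 to 653 CPM in sham and 2737 to 6607 in IZ libraries. Of 6 fibroblast markers 5 were higher (1423 to 2711 against 10570 to 18510 CPM), 2 of 5 endothelial markers were lower (414 to 832 against 304 to 494 CPM; with total counts alone 1 was lower and 4 higher) and the 3 neutrophil markers tested were higher, with sums of at most 208 CPM. With total counts alone 9176 of all 12301 genes tested rose and 1534 fell. Lymphocyte markers summed to at most 16.4 CPM and fat cell markers to at most 41.5 CPM. In bulk tissue, fewer cells of a type and less RNA per cell cannot be told apart, and the part of these shifts in the lysosomal results was not tested.

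Mitochondrially encoded RNA made up 22.9% to 32.4% of counts in sham and 4.22% to 19.5% in IZ libraries. IZ replicate 1 stood apart from the other 8, in which that share was at most 6.78%, and it had the highest cardiomyocyte and the lowest macrophage sum of the 9. It was also the lowest IZ library in 26 of the 30 members that rose and the highest in 5 of the 6 that fell. Leaving it out changed none of the 38 calls.

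**Figure D1:**
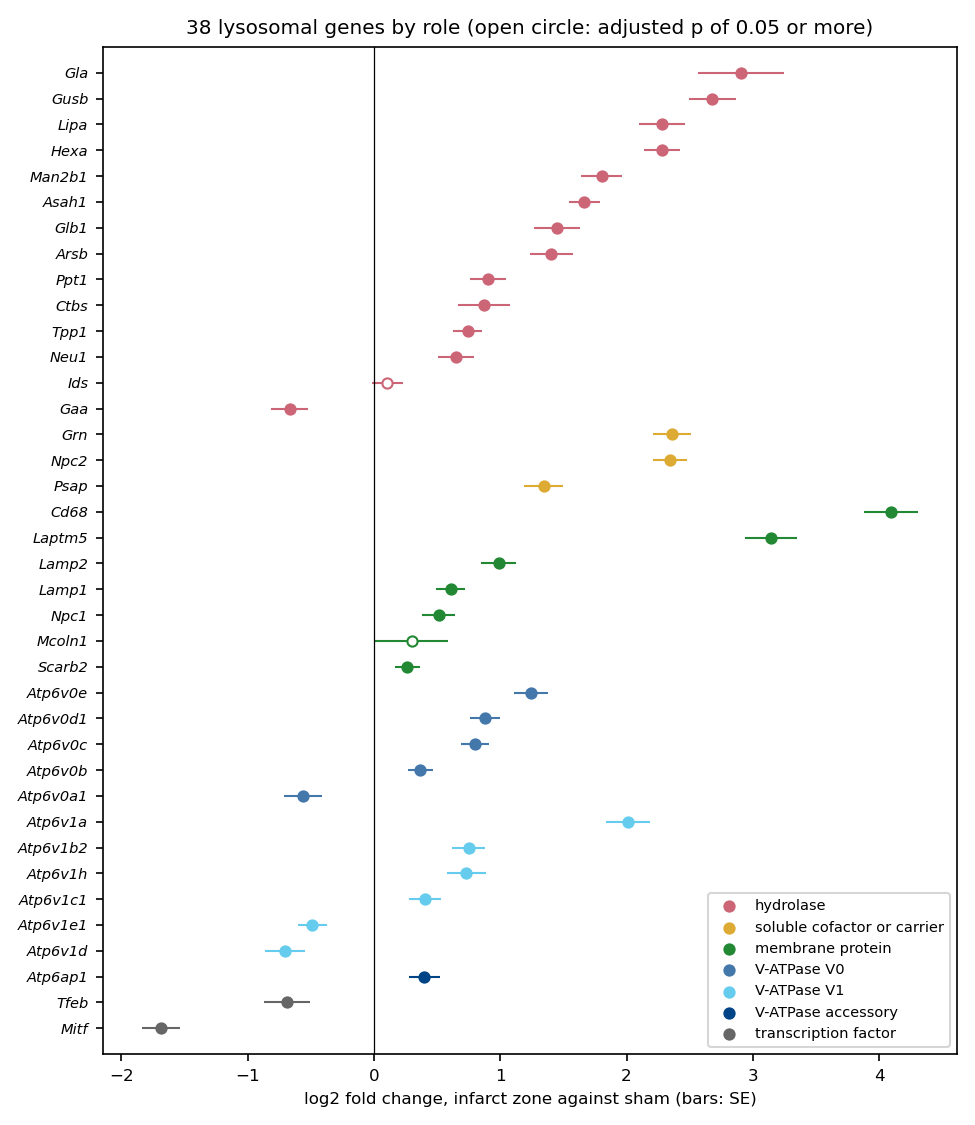
Log2 fold change of each of the 38 genes, IZ (n = 9) against sham (n = 8), with its standard error as a bar, coloured by role; open circles are the 2 genes that did not pass. Hydrolases span -0.67 to 2.90 and pump subunits -0.70 to 2.01; under total counts alone Gaa, Atp6v0a1, Atp6v1d, Atp6v1e1 and Tfeb turn upward.

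Of the 14 hydrolases, 12 rose, 1 fell and 1 did not pass, with a median log2 fold change of 1.43. In 8 of them the rise was more than 2-fold, and in 10 no IZ library overlapped with sham. The share of all genes with a rise over 2-fold was not counted. Over all genes tested 36.3% rose and 33.1% fell, and in 16.6% every IZ library lay above every sham library. These shares stand beside the counts of each role below. Gla, Gusb and Hexa, which cut sugars from glycolipids and glycosaminoglycans, were among the 4 highest.

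Gla, alpha-galactosidase A, had the highest fold of the hydrolases (chrX:134588149-134601125). It lay at 0.0 to 6.05 CPM in sham hearts (median 1.98) and at 7.90 to 23.1 CPM in the IZ (median 17.4). Every IZ library was above every sham library, although the sham counts were low, at 0 to 11 per library. The log2 fold change was 2.90 ± 0.34 (SE, adjusted p = 8.84e-08, edgeR).

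Gusb, beta-glucuronidase, followed with 14.9 to 34.7 CPM in sham (median 24.9) and 71.1 to 206 CPM in the IZ (median 166), a log2 fold change of 2.68 ± 0.19 (SE). Hexa, the alpha subunit of the hexosaminidase that degrades ganglioside GM2, had 44.4 to 64.0 CPM in sham (median 54.3) and 156 to 348 CPM in the IZ (median 280). Lipa, the acid lipase that frees cholesterol from its esters, had 24.2 to 52.6 CPM in sham (median 30.9) and 84.4 to 212 CPM in the IZ (median 174). In none of these 3 genes did IZ and sham libraries overlap, and both Hexa and Lipa had a log2 fold change of 2.28.

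Man2b1, the lysosomal alpha-mannosidase, rose by 1.80 ± 0.16 (log2, SE) and Asah1, acid ceramidase, by 1.67 ± 0.12. Glb1, beta-galactosidase, had 8.78 to 23.7 CPM in sham and 24.1 to 55.8 CPM in the IZ, with a log2 fold change of 1.45. Its exons overlap those of Tmppe on the same strand, so its counts are uncertain. Arsb, which removes sulfate from dermatan sulfate, rose by 1.40 ± 0.17. In each of these 4 genes all 9 IZ libraries lay above all sham libraries.

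Changes under 2-fold were found in 4 further hydrolases. Ppt1, a thioesterase that removes palmitate from proteins, rose by 0.90 (log2) and Tpp1, a tripeptidyl peptidase, by 0.74, both without overlap between groups. Ctbs, a chitobiase, rose by 0.87 and Neu1, a sialidase, by 0.65, each with 8 of 9 IZ libraries above every sham library.

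Ids, iduronate 2-sulfatase, did not pass. It lay at 17.5 to 30.3 CPM in sham (median 26.8) and at 24.1 to 33.5 CPM in the IZ (median 26.6), and only 1 IZ library was above every sham library. This gave a log2 fold change of 0.11 ± 0.13 (SE, adjusted p = 0.458, edgeR). With total counts alone it was 1.196, which is 0.065 above the median of all genes under that scaling.

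Gaa, the acid alpha-glucosidase that degrades glycogen, was the only hydrolase of the 14 that fell (chr11:119267887-119285454). It lay at 77.7 to 105 CPM in sham hearts (median 89.5) and at 38.1 to 102 CPM in the IZ (median 52.2). The IZ libraries fell below every sham library in 8 of 9 cases, and the exception was replicate 1 at 101.6 CPM, with the next at 61.9 CPM. On the log2 scale the change was -0.67 ± 0.14 (SE, adjusted p = 0.000244, edgeR), and -0.85 without replicate 1. With total counts alone it was 0.38, which is 0.76 below the median of all genes under that scaling.

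The 3 soluble cofactors and carriers all rose, with no overlap between the groups. Grn, the precursor of granulins and a secreted as well as lysosomal protein, rose from 70.4 to 101 CPM in sham (median 84.2) to 259 to 553 CPM in the IZ (median 414). Its log2 fold change was 2.36 ± 0.15 (SE, adjusted p = 6.51e-12, edgeR). Npc2, which binds cholesterol freed in the lumen, lay at 47.7 to 69.6 CPM in sham and at 197 to 370 CPM in the IZ, a log2 fold change of 2.35 ± 0.13 (SE).

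Psap, the precursor of the saposins that present sphingolipids to their hydrolases, had the smallest change of the 3. It lay at 389 to 503 CPM in sham (median 415.0) and at 549 to 1319 CPM in the IZ (median 1160.0). The lowest IZ value was that of replicate 1, and the next was 989 CPM. In the fit its log2 fold change was 1.34 ± 0.16 (SE, adjusted p = 6.1e-08, edgeR).

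Of the 7 membrane proteins 6 rose and 1 did not pass, with a median log2 fold change of 0.61. Their changes were of very different sizes, and the 2 above 2-fold were Cd68 and Laptm5, which are known as genes of macrophages and of blood cells. Their rise stood beside that of all 11 macrophage markers, whose own median log2 fold change was 3.19, and the part of cell number in it was not tested.

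Cd68, a heavily glycosylated protein of late endosomes and lysosomes, had the largest change of the 38 genes (chr11:69664213-69666153). Sham hearts held 8.01 to 15.7 CPM (median 10.7) and the IZ 74.7 to 249 CPM (median 203). All IZ libraries lay far above the sham range, with replicate 1 the lowest and the next at 147 CPM. The log2 fold change was 4.09 ± 0.21 (SE), or 17.1-fold, with an adjusted p of 4.8e-13 (edgeR). Laptm5 rose from 20.4 to 41.6 CPM in sham (median 32.6) to 137 to 388 CPM in the IZ (median 256), a log2 fold change of 3.14 ± 0.20.

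Lamp1 and Lamp2, the glycoproteins that line the lysosomal membrane, rose less. Lamp1 lay at 351 to 456 CPM in sham (median 390) and at 467 to 711 CPM in the IZ (median 604), with a log2 fold change of 0.61 ± 0.12 (SE, adjusted p = 6.4e-05, edgeR). Lamp2 lay at 79.2 to 148 CPM in sham (median 99.2) and at 168 to 239 CPM in the IZ (median 217), with a log2 fold change of 0.99 ± 0.14 (SE, adjusted p = 9.51e-07, edgeR). Neither gene showed any overlap between groups.

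Npc1, the membrane partner of Npc2 in cholesterol export, rose by 0.52 ± 0.13 (log2, SE), with 8 of 9 IZ libraries above sham and replicate 1 within the sham range. Scarb2, an integral protein of the lysosomal membrane, had the smallest change that passed. It lay at 106 to 140.0 CPM in sham (median 129) and at 124 to 173 CPM in the IZ (median 155), with 6 of 9 IZ libraries above every sham library. Its log2 fold change was 0.26 ± 0.10 (SE, adjusted p = 0.0217, edgeR), and without sham replicate 2 the adjusted p was 0.0578.

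Mcoln1, the calcium channel of the lysosomal membrane, did not pass. Its level was 3.43 to 14.1 CPM in sham (median 6.89) and 2.81 to 14.5 CPM in the IZ (median 8.70), and the groups overlapped almost entirely. This gave a log2 fold change of 0.30 ± 0.29 (SE, adjusted p = 0.362, edgeR) at 9 to 18 counts per sham and 5 to 66 per IZ library.

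The proton pump had a smaller median change than the enzymes that need its acid. Of its 12 subunits 9 rose and 3 fell, with a median log2 fold change of 0.57. Under total counts alone all 12 were higher, with a median of 1.66. Under that scaling 9176 of all 12301 genes tested rose, and their overall median was 1.13. Over all genes tested 36.3% rose and 33.1% fell under TMM. A rise over 2-fold, whose share over all genes was not counted, was seen in 2 subunits, Atp6v1a and Atp6v0e. In 4 subunits every IZ library lay above every sham library, which holds for 16.6% of all genes. The fold changes differed among subunits of the same sector, from -0.56 to 1.25 within V0 and from -0.70 to 2.01 within V1.

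In the V0 sector, which holds the proton channel, Atp6v0e had the largest change (chr17:26663231-26699647). It rose from 46.2 to 72.8 CPM in sham (median 61.6) to 96.2 to 191 CPM in the IZ (median 141), without overlap. On the log2 scale the change was 1.25 ± 0.13 (SE, adjusted p = 1.96e-08, edgeR).

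Atp6v0d1, which couples the rotor to the membrane ring, rose by 0.88 ± 0.12 (log2, SE), and Atp6v0c, the proteolipid of that ring, by 0.80 ± 0.11. Both were above sham in all 9 IZ libraries. Atp6v0c is 99.8% identical to the pseudogene Atp6v0c-ps2 over 452 bases, which had 16 counts in all libraries against 7806 for Atp6v0c. Atp6v0b, another ring subunit, rose by 0.37 ± 0.10.

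Atp6v0a1, an isoform of the large subunit that forms the path of protons, fell (chr11:101009452-101063719). It lay at 28.2 to 63.1 CPM in sham (median 44.4) and at 17.7 to 40.9 CPM in the IZ (median 28.7), and 4 of 9 IZ libraries were below every sham library. In the fit its log2 fold change was -0.56 ± 0.15 (SE, adjusted p = 0.00261, edgeR), and it turned to 0.51 with total counts alone.

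In the V1 sector, Atp6v1a, the subunit that splits ATP, had the largest change of the pump (chr16:44085402-44139705). It rose from 15.3 to 35.9 CPM in sham (median 29.97) to 72.9 to 134.5 CPM in the IZ (median 106), and all IZ libraries were above sham. The log2 fold change was 2.01 ± 0.17 (SE, adjusted p = 5.35e-10, edgeR). Its partner in the catalytic ring, Atp6v1b2, rose by 0.75 ± 0.13, with 8 of 9 IZ libraries above sham. Atp6v1h, a regulatory subunit, rose by 0.73 ± 0.15 and Atp6v1c1, which ties the sectors together, by 0.41 ± 0.12.

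Of the 6 V1 subunits among the 38 genes, the 2 that fell were Atp6v1d and Atp6v1e1. Atp6v1d, part of the shaft that turns inside the ring, lay at 48.1 to 90.4 CPM in sham (median 62.0) and at 24.1 to 66.1 CPM in the IZ (median 40.7). In 8 of 9 IZ libraries it was below every sham library, and replicate 1 was the exception at 66.1 CPM. This gave a log2 fold change of -0.70 ± 0.16 (SE, adjusted p = 0.000419, edgeR), and 0.35 with total counts alone. Atp6v1e1, of the stalk, lay at 67.9 to 111 CPM in sham and 55.9 to 84.4 CPM in the IZ, with a log2 fold change of -0.49 ± 0.11 that turned to 0.58 with total counts alone.

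Atp6ap1, an accessory subunit that helps the pump assemble, lay at 82.4 to 127 CPM in sham (median 106) and at 102 to 164 CPM in the IZ (median 142). Of the IZ libraries 5 of 9 were above every sham library. On the log2 scale the change was 0.40 ± 0.12 (SE, adjusted p = 0.00592, edgeR).

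**Figure D2:**
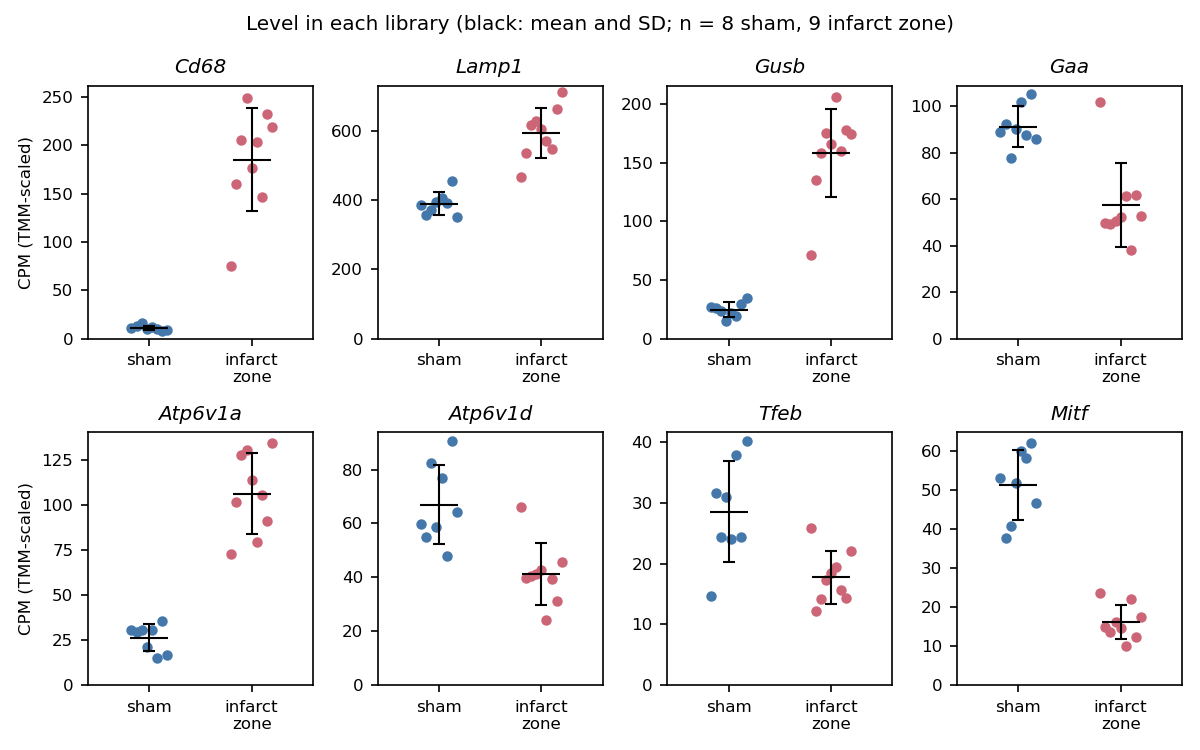
Level of 8 of the genes in each library (CPM, TMM-scaled, axis from 0), with the mean and SD in black, for 8 sham and 9 IZ mice. Cd68, Lamp1, Gusb and Atp6v1a are higher and Mitf lower in every IZ library; for Gaa and Atp6v1d 1 IZ library, replicate 1, lies within the sham range, and Gaa, Atp6v1d and Tfeb turn upward under total counts alone.

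Hydrolases and pump were set side by side within each library, since a ratio of 2 sums from 1 library is the same under any scaling of the libraries. The 14 hydrolases summed to 412 to 481 CPM in sham (median 455) and to 827 to 1419 CPM in the IZ (median 1223), 2.68 times the sham mean. The 12 pump subunits summed to 715 to 819 CPM in sham (median 768) and to 889 to 1305 CPM in the IZ (median 1054), 1.45 times the sham mean.

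The ratio of hydrolase to pump counts was 0.552 to 0.641 in sham (median 0.592) and 0.930 to 1.26 in the IZ (median 1.09). All 9 IZ libraries had a higher ratio than any sham library. The mean log2 ratio differed by 0.88, and by 0.91 without IZ replicate 1, which had the lowest IZ ratio. When each gene was given equal weight through the mean of its log2 CPM, the difference was 0.85. These are descriptions of chosen lists, and no test was made of the difference between them.

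**Figure D3:**
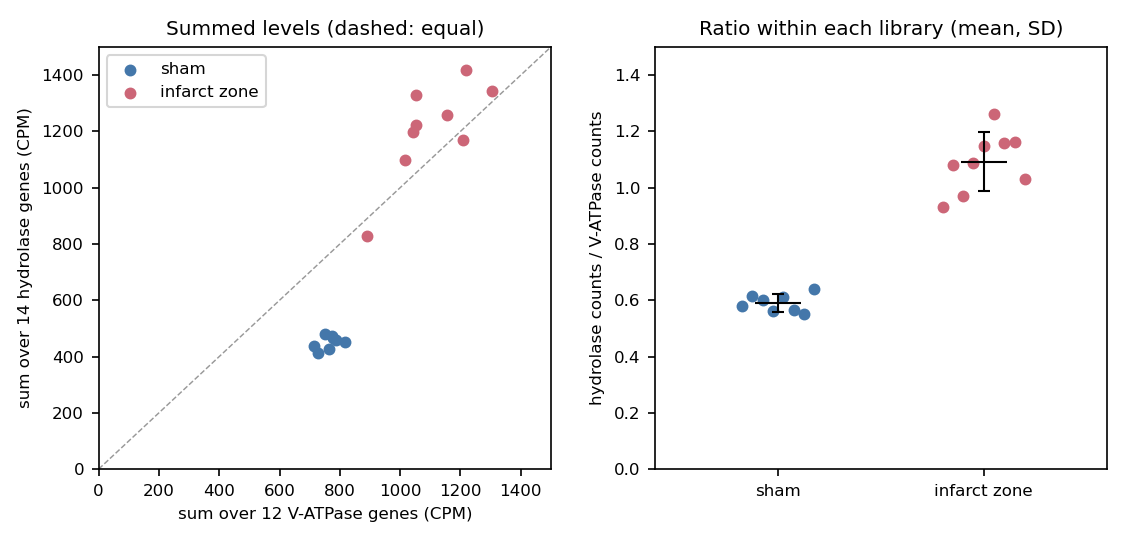
Left, summed CPM of the 14 hydrolases against that of the 12 pump subunits in each library, with a dashed line where both are equal; right, their ratio in each library with mean and SD. The 8 sham ratios lie between 0.552 and 0.641 and the 9 IZ ratios between 0.930 and 1.26.

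Several pump subunits have a paralog that is used in other cell types. For such subunits, and for Lamp1 and Lamp2, the share of 1 form within its pair or trio was tested. The test was an exact two-sided permutation of the group labels (24310 arrangements), adjusted over 5 shares. These genes came from lists chosen with earlier results of these data known, so the p-values are no independent support. Tcirg1 encodes the a3 form of the large V0 subunit, known from osteoclasts and macrophages. It made up 9.43% to 14.1% of the counts of Atp6v0a1, Atp6v0a2 and Tcirg1 in sham and 42.7% to 74.1% in the IZ, a mean of 11.6% ± 1.63 (SD, n = 8) against 60.7% ± 8.24 (SD, n = 9; exact permutation p = 4.11e-05, the smallest the test can give, adjusted p = 0.000103). Each IZ library, replicate 1 at 42.7% included, lay above each sham library. Atp6v0a4, a further a form, was left out of the trio, at 0 to 1 counts per sham and 2 to 13 per IZ library. Its exons overlap those of D630045J12Rik on the same strand, so its counts are uncertain.

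Atp6v0d2, a d subunit also known from osteoclasts, made up at most 2.48% of the counts of both d genes in sham and 4.59% to 24.2% in the IZ, a mean of 0.758% ± 1.09 (SD, n = 8) against 15.4% ± 5.73 (SD, n = 9; exact permutation p = 8.23e-05, adjusted p = 0.000137). Atp6v0e2 moved the other way, from 16.4% ± 4.11 (SD, n = 8) of the counts of both e genes to 2.13% ± 1.27 (SD, n = 9; exact permutation p = 4.11e-05, adjusted p = 0.000103). Neither share overlapped between groups. Part of the Tcirg1 and Atp6v0e2 transcripts is over 95% identical to stretches of other genes, so reads there could have been counted elsewhere.

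Atp6v1g2, a G subunit known from neurons, made up 2.28% ± 1.45 (SD, n = 8) of the counts of Atp6v1g1 and Atp6v1g2 in sham and 3.94% ± 1.16 (SD, n = 9) in the IZ (exact permutation p = 0.0218, adjusted p = 0.0218). Only 4 of 9 IZ libraries lay above every sham library. The share rests on 0 to 7 counts of Atp6v1g2 per sham and 4 to 17 per IZ library, and the gene did not pass the filter on low counts. Atp6v1g1 had a log2 fold change of -0.39, and 0.68 with total counts alone. Lamp1 made up 78.8% ± 3.53 (SD, n = 8) of the counts of Lamp1 and Lamp2 in sham and 73.8% ± 2.21 (SD, n = 9) in the IZ (exact permutation p = 0.00399, adjusted p = 0.00499), so that the smaller partner Lamp2 gained within the pair, with overlap in 5 of the 9 IZ libraries.

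**Figure D4:**
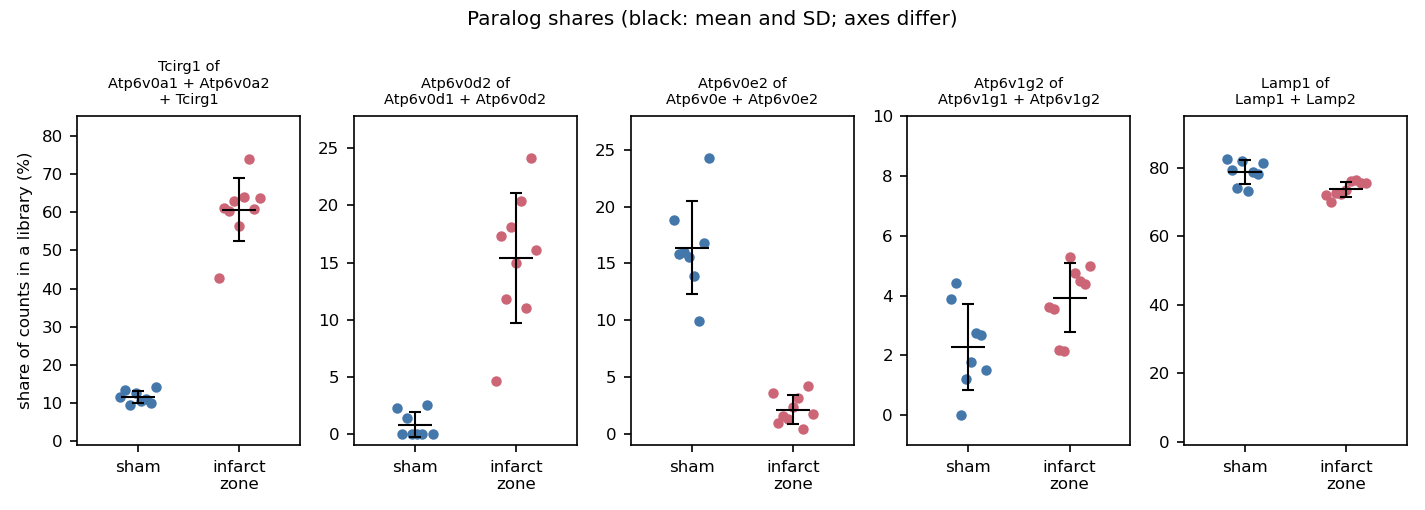
Share of counts that 1 paralog takes within its pair or trio in each library (percent; the axes differ between panels), with mean and SD in black, for 8 sham and 9 IZ mice. Tcirg1 rises from a mean of 11.6% to 60.7% and Atp6v0e2 falls from 16.4% to 2.13%, both without overlap.

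The transcription factors among the 38 genes both fell, although the value of Tfeb turned positive with total counts alone. Tfeb, which drives lysosomal genes when nutrients are short, lay at 14.6 to 40.2 CPM in sham (median 27.7) and at 12.1 to 25.8 CPM in the IZ (median 17.3). The groups overlapped, with 3 of 9 IZ libraries below every sham library. In the fit its log2 fold change was -0.69 ± 0.18 (SE, adjusted p = 0.00179, edgeR), and 0.36 with total counts alone.

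Mitf, a related factor known from pigment cells and osteoclasts and also expressed in heart, fell further (chr6:97807052-98021349). It lay at 37.7 to 62.2 CPM in sham (median 52.5) and at 10.1 to 23.7 CPM in the IZ (median 14.9), so that every IZ library was below every sham library. The log2 fold change was -1.69 ± 0.15 (SE, adjusted p = 1.45e-09, edgeR), and it stayed negative, at -0.62, with total counts alone. The other 2 genes of the family, which are no members, rose. Tfe3 lay at 4.42 to 14.1 CPM in sham and at 18.7 to 34.4 CPM in the IZ, a log2 fold change of 1.46 ± 0.20. Tfec, known from macrophages, lay at 0.0 to 2.75 CPM in sham and at 1.44 to 11.9 CPM in the IZ, a log2 fold change of 3.11 ± 0.53 on 0 to 5 sham counts per library.

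Set against the promoter letters shown above, the 9 members with CACGTG in their window comprised 7 that rose (Atp6v0b, Atp6v0d1, Atp6v0e, Atp6v1a, Gla, Glb1 and Lamp1), Gaa, which fell, and Mcoln1, which did not pass. Their median log2 fold change was 0.88. Of the 24 members with a window but no CACGTG, 18 rose, 5 fell and 1 did not pass, with a median of 0.89. The 5 members without a window all rose, with a median of 0.73. Over all genes tested 36.3% rose and 33.1% fell. Whether the element has a part in these changes was not tested. The value of Gaa turned upward with total counts alone.

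A wider list of 84 other genes of the lysosome and of autophagy was measured, of which 77 were tested. In it 44 rose, 16 fell and 17 did not pass, with a median log2 fold change of 0.59. Among all 12301 genes tested, 36.3% rose and 33.1% fell, and these shares stand beside each count of this list. With total counts alone 67 rose, 4 fell and 6 did not pass, where 9176 of all 12301 genes rose and 1534 fell. Of its 19 hydrolases 16 rose, 1 fell and 2 did not pass, with a median of 1.63. Acp5, the tartrate-resistant phosphatase of osteoclasts and macrophages, rose most, from at most 3.30 CPM in sham to 12.6 to 50.4 CPM in the IZ (log2 fold change 5.06 ± 0.41, on 0 to 6 sham counts per library). Smpd1, acid sphingomyelinase, was the exception and fell from 136 to 175 CPM in sham to 26.9 to 85.4 CPM in the IZ. Every IZ library was below every sham library, and the change was -1.88 ± 0.18 (log2, SE).

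All 3 further cofactors rose, from Sumf1, which activates sulfatases, at 0.89 (log2) to Gm2a, the activator that serves Hexa, at 1.92. Among 14 further membrane proteins 9 rose, 2 fell and 3 did not pass. With total counts alone 12 rose and 0 fell, where 9176 of all 12301 genes rose and 1534 fell. Mcoln2, a channel related to Mcoln1, was at no more than 2 counts in any sham library and at 2.51 to 13.8 CPM in the IZ. Its IZ mean of 7.43 CPM was 4.19 times the mean sham floor (3 counts, 1.77 CPM), a lower bound for the fold of the means. Mfsd8, a membrane transporter, fell from 8.29 to 14.4 CPM to 3.68 to 5.79 CPM, a log2 fold change of -1.14 ± 0.17 that was -0.06 with total counts alone. Of 6 genes for sorting and delivery of enzymes 5 rose, led by the mannose 6-phosphate receptor M6pr at 1.14, and Sort1 did not pass at 0.02 ± 0.14.

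Among the 7 further pump genes tested of 13, 3 rose, 2 fell and 2 did not pass. With total counts alone 6 rose and 1 fell, where 9176 of all 12301 genes rose and 1534 fell. Over all genes tested 36.3% rose and 33.1% fell under TMM. Tcirg1 rose from 7.84 to 12.8 CPM in sham to 54.9 to 136 CPM in the IZ, a log2 fold change of 3.24 ± 0.17. Atp6v0d2 was at no more than 3 counts in any sham library and at 3.23 to 30.7 CPM in the IZ. Its IZ mean of 17.6 CPM was 9.96 times the mean sham floor (3 counts, 1.77 CPM), a lower bound for the fold of the means. Atp6ap2, the second accessory subunit, rose by 1.59, and Atp6v0e2 fell by 2.05 on the log2 scale. Over all 19 pump genes tested, members included, the median log2 fold change was 0.41, and over all 33 hydrolases it was 1.54.

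The next groups act at or around the lysosome. Beside their counts under TMM stand the 36.3% of all genes tested that rose and the 33.1% that fell. Beside those under total counts alone stand 9176 of 12301 genes that rose and 1534 that fell. The median of all genes was 0.05 under TMM and 1.13 under total counts alone, above that of both groups each time. Of 14 genes for nutrient sensing at the lysosomal surface 2 rose, 5 fell and 7 did not pass. Their median log2 fold change was -0.16. With total counts alone 11 rose and 1 fell, with a median of 0.93. Rragd, a GTPase that recruits the kinase mTOR, fell from 36.3 to 66.7 CPM to 4.82 to 27.6 CPM (log2 fold change -2.55 ± 0.26), with IZ replicate 1 the highest of the IZ libraries, and Fnip2, which acts on Rag GTPases with folliculin, rose by 1.62. Of 12 autophagy genes 4 rose, 6 fell and 2 did not pass, with a median of -0.33. With total counts alone 9 rose and 1 fell, with a median of 0.73. Map1lc3a, which coats autophagosomes, fell from 505 to 718 CPM to 63.0 to 310 CPM, with replicate 1 at 309.8 CPM again the highest (log2 fold change -2.58 ± 0.26), whereas Atg7, which activates that protein, rose by 0.71.

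**Figure D5:**
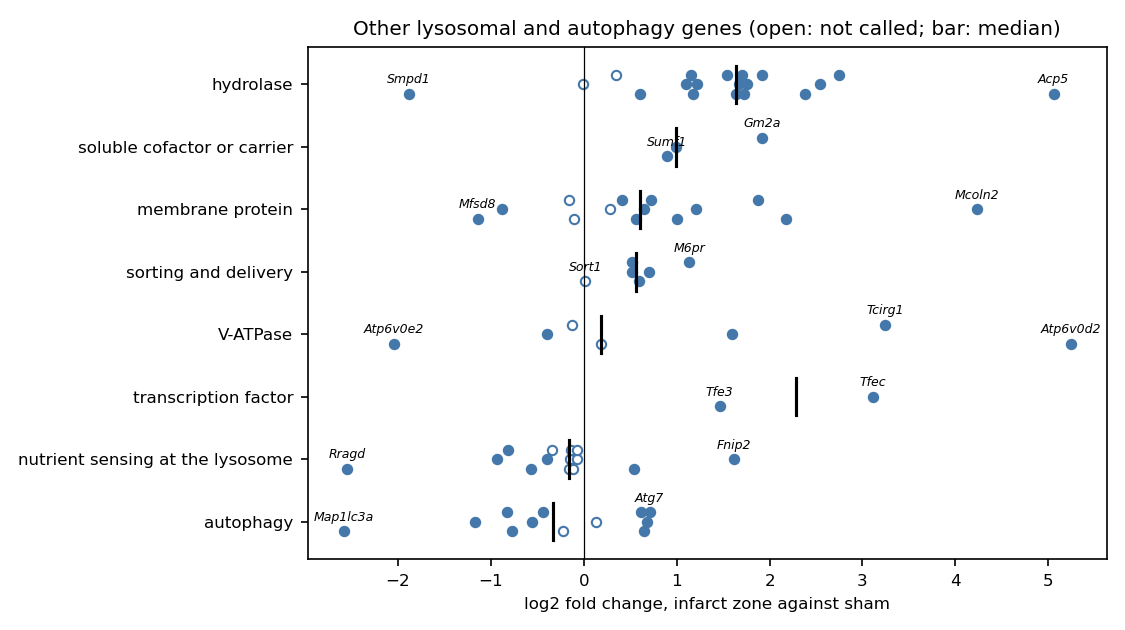
Log2 fold change, IZ against sham, of the 77 further genes tested, by role, with open circles for genes that did not pass and a bar at the median of each role; the highest and lowest of each role and Tcirg1 are labelled, and the points of Mcoln2 and Atp6v0d2 rest on sham libraries at or under 3 counts. The hydrolase median is 1.63 and the autophagy median -0.33, which become 2.71 and 0.73 under total counts alone. The median of all genes tested is 0.05 and becomes 1.13.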

How the data were processed

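MACE 3′-end RNA sequencing was compared between 8 sham and 9 infarct zone hearts. Per the labels and the study's methods, the authors removed PCR copies by unique molecular identifiers, mapped reads to mm10 (Bowtie2) and used HTSeq to quantify genes. What the authors deposited are whole-number counts without normalisation. Strand settings and the annotation release are not given in the sources used here.

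Genes were named through GENCODE M21 (GRCm38), which held 31554 of 31647 row identifiers, and 35 rows combine several genes. Counts were fitted with edgeR 4.0.16 (R 4.3.3; filterByExpr with a minimum of 10 counts, TMM, glmQLFit and glmQLFTest, Benjamini-Hochberg over 12301 genes, threshold 0.05). In the shams, 34 of the 38 genes had at least 10 counts in every library. CPM were TMM-scaled. Shares were compared by exact permutation over libraries. Floors (3 counts) and counts cover counting error only. Near-identical transcripts were found with BLAST 2.17.0 (at least 95% over 100 bases). Besides Atp6v0c, members with such stretches in other counted genes were Npc1, Man2b1, Grn, Atp6v1b2 and Atp6v1h. Among the other named genes Atp6v0a4, M6pr and Mfsd8 had them, besides Tcirg1 and Atp6v0e2. Reads from those stretches could have been counted elsewhere.

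The members and gene lists were chosen with earlier results of these data known. Full values are given for the highest and lowest fold change in each role, Atp6ap1, Tfeb, Mitf, Lamp1, Lamp2, Cd68 and members that did not pass. From the wider list the highest and lowest of each role, Tcirg1, Tfe3 and Tfec are named. They are given with levels, a log2 fold change or both, and without edgeR's adjusted p. Atp6ap2 was named after its values were seen. Alternatives were other scalings (DESeq2 size factors, upper quartile, total counts alone), DESeq2 1.42.0, other filters, thinning, no mitochondrial genes, a replicate block and leaving out each library.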

Additional observations from a re-analysis of the deposited data

Results flagged for a closer look

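A library stood far from the rest of its group for 9 genes, by the gap between the most extreme library and its neighbour as a share of the group's range (Dixon's 95% limit). In all, 122 groups of libraries were examined, of which chance alone marks about 1 in 20. IZ replicate 1 was the library concerned in 7 of the 9. It was the highest IZ library for Gaa (101.6 CPM, gap share 0.626), Smpd1 (85.4 CPM, 0.51), Rragd (27.6 CPM, 0.786) and Map1lc3a (309.8 CPM, 0.825), all of which fell in the IZ under TMM, although Gaa turns upward with total counts alone. It was the lowest IZ library for Psap (549 CPM, 0.571), Npc2 (197 CPM, 0.555) and Npc1 (37.0 CPM, 0.569), all of which rose. In the same library the cardiomyocyte markers summed to 23890 CPM and the macrophage markers to 2737 CPM, the highest and the lowest of the 9, and their part in these values was not tested. The other cases were Mcoln1 in sham replicate 3 (14.1 CPM, highest, 0.566) and Sort1 in IZ replicate 5 (23.6 CPM, highest, 0.52).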

How the results depend on the processing

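Apart from the changes that follow, the counts, medians, shares and named genes kept their direction and their side of the threshold under the 26 other settings of the fit. Scaling by total counts alone gave 10710 calls, 85.7% of them upward (52.3% under TMM), with 0 hydrolases and 0 pump subunits lower, medians of 2.51 and 1.66, and reversed values for Gaa (0.38), Atp6v0a1 (0.51), Atp6v1d (0.35), Atp6v1e1 (0.58) and Tfeb (0.36). Under it Ids, Mcoln1 and Sort1 passed upward and Mfsd8 no longer passed. Atp6v1g1, which is no member, turned from -0.39 to 0.68 and passed upward. The 5 reversed members stayed below the median of all genes under that scaling (-0.76, -0.62, -0.78, -0.55 and -0.77). This comparison was chosen after seeing the data, as were the counts of the wider and marker lists under that scaling. A minimum mean of 50 counts left fewer genes to test and 5239 calls. Upper quartile scaling moved the median of all genes by 0.11. Without the filter on low counts 27668 genes were tested, the median moved by 0.19 and 10664 were called, and DESeq2 on as many genes moved it by -0.25 and called 10295. The log2 fold change of Sort1, 0.02, turned to -0.003 with DESeq2 and ran from -0.032 to 0.071 when 1 library was left out, negative without sham replicate 2, 6 or 8 or IZ replicate 5. The log2 fold change of Scarb2 lost its call when thinned to 1237675 counts per library (adjusted p = 0.0538), without sham replicate 2 (0.0578) and with the replicate block (0.063); the cause was not tested. Leaving out 1 library gave 7962 to 8614 calls, with hydrolase medians of 1.33 to 1.49 and pump medians of 0.53 to 0.61.

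Replicate numbers occur in both groups but name different mice. Deviations of same-numbered libraries correlated between -0.216 and 0.128, and 1 of 8 matched its own number best, so no pairing was used. With the replicate block 7884 genes were called, 12 hydrolases and 9 pump subunits higher; apart from Scarb2 no call among the named genes changed. Gla, with 0 to 11 counts per sham library, and Ctbs, with 4 to 16, rest on few counts, which limits their precision.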
